A study of Mus musculus with 6 samples.

Results

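The genes described here encode the machinery between a G-protein-coupled receptor and its second messengers: the G-protein subunits, the adenylyl cyclases, the cyclic nucleotide phosphodiesterases and the regulators of G-protein signalling (RGS proteins). Members were chosen by gene symbol alone (Adcy, Pde, Rgs, Gna, Gnb, Gng and Gngt symbols, leaving out Gng13), which gave 86 of the 23845 genes in the count table. They comprise 10 adenylyl cyclases, 23 phosphodiesterases, 21 RGS genes, 16 G alpha, 5 G beta and 11 G gamma genes. Their RNA was measured in 6 libraries, 2 per group, made from intestinal epithelial cells of mice in a study of the dose of Neurog3, the transcription factor that commits gut progenitors to the hormone-secreting enteroendocrine lineage. EGFP cells carried the genotype Neurog3+/-EGFP, with 1 Neurog3 allele, on strain C57BL6. EYFP cells carried Neurog3+/+EYFP, with 2 alleles, on a mix of C57BL6 and CD1. Both reporter lines were described as mutant, and their Neurog3-expressing cells were obtained by flow sorting. The third group was wild-type C57BL6 epithelium, whose titles point to duodenum and for which the labels name no sort. The sources used here give neither age nor sort gates, nor the gut segment of the sorted cells. Allele number, reporter and strain changed together between EYFP and EGFP cells and cannot be told apart. The labels do not say that replicates came from separate animals, so p-values measure only the spread between these libraries.

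A ligand-bound receptor makes the alpha subunit of its G protein exchange GDP for GTP and part from the beta and gamma subunits. Alpha subunits of the Gs class stimulate adenylyl cyclase, those of the Gi/o class inhibit it, and those of the Gq class activate phospholipase C beta. The G12 class is a further one. Phosphodiesterases degrade the cyclic AMP and cyclic GMP that cyclases make, and RGS proteins speed up GTP hydrolysis on alpha subunits and so end the signal. In enteroendocrine cells, nutrient and neurotransmitter receptors use these pathways to raise or restrain hormone secretion.

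Total estimated counts per library ranged from 7938358 to 20589683. Levels are in CPM, counts per 1000000 after division by the library total times its scaling factor. Neurog3 stood at 119 and 179 CPM in EGFP cells, 563 and 348 in EYFP cells, and 6.0 and 6.39 in wild type, which follows the order of the labels for the sorted groups. Of the 8 enteroendocrine markers, such as Chga and Chgb, 7 were higher in EYFP than in EGFP cells, and their summed level was 9072 to 13629 CPM in EGFP, 45888 to 60593 CPM in EYFP and 515 to 583 CPM in wild type. All 8 goblet and all 5 Paneth markers were lower in EYFP than in EGFP cells. Goblet sums were 61076 to 100651 against 692 to 1809 CPM (wild type 5392 to 6994). Paneth sums were 8820 to 10762 against 265 to 507 CPM (wild type 9431 to 14193). The 6 markers of dividing cells were lower as well (863 to 957 against 147 to 209 CPM, wild type 675 to 954). Markers of stromal cells summed to at most 27.6 CPM in any library. Those of neurons and glia were low and moved with the sorted groups, at 3.98 and 3.97 CPM in EGFP, 14.7 and 16.0 in EYFP and 2.25 and 1.63 in wild type, with Elavl4, 1 of 3 tested, higher in EYFP than in EGFP cells, all 3 tested higher in EYFP cells than in wild type, and Sox10 at 0 in all libraries. In these bulk samples, fewer cells of a type and less RNA per cell cannot be told apart, and the part of cell composition in the results that follow was not tested. Xist, expressed from the inactive X chromosome of females, was at 966 and 969 CPM for EGFP, 0.634 and 2.36 CPM for EYFP, and 1.17 and 726 CPM for wild type. The Y-linked Ddx3y was at 0 in both EGFP libraries and at 37.3 and 39.3 CPM in EYFP cells, so sex-linked RNA also differed between EYFP and EGFP cells and cannot be told apart from the other differences. The wild-type libraries differed from each other in Xist. Comparisons with wild type, and fits without a wild-type library, therefore also carry a difference in sex-linked RNA.

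Of the 86 members, 69 passed the filter on low counts and were tested. Between EYFP and EGFP cells, 18 members were higher (26.1% of those tested) and 8 lower (11.6%) at an adjusted p under 0.05 in edgeR's quasi-likelihood test, and 43 did not pass. Across all 13935 genes tested, 16.8% were called higher and 19.4% lower. The median log2 fold change, EYFP over EGFP, was 0.44 over the tested members and 0.01 over all genes tested. With DESeq2 size factors in place of the TMM scaling, the split was 21 higher and 5 lower. Leaving out 1 library at a time, 11 members were higher without EGFP replicate 1, and 2, 4 and 2 were lower without, in turn, EGFP replicate 1, EGFP replicate 2 or EYFP replicate 1. In each of the 6 fits that left out a library, all 26 called members kept their direction, but most lost their call in at least 1 of them. The calls that held in every such fit were Adcy1, Gnao1, Gnaz, Gng12, Gng4, Pde11a and Pde1c (higher) and Gng11 and Rgs13 (lower).

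**Figure D1:**
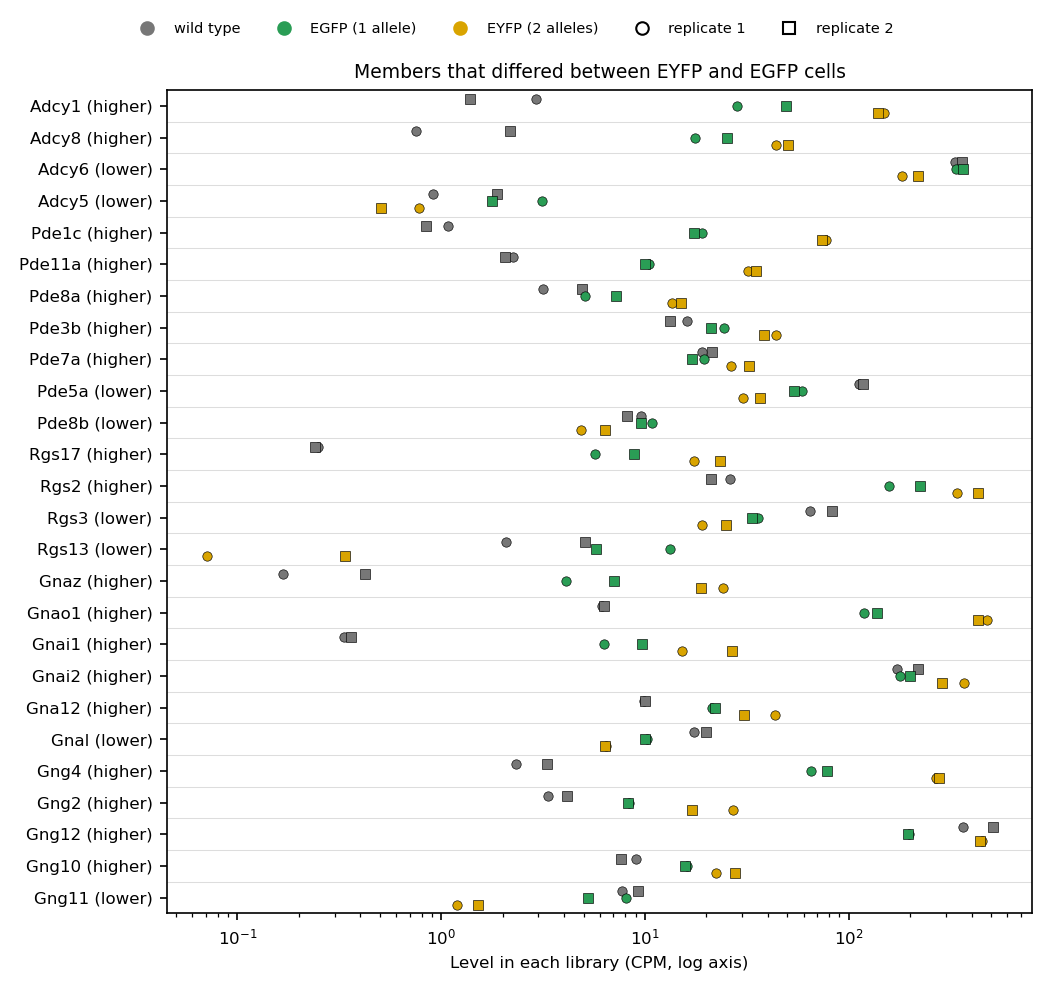
Level (CPM, log axis) of the 26 members that differed between EYFP and EGFP cells, in each library, with circles for replicate 1 and squares for replicate 2. For the 18 higher members both EYFP points lie to the right of both EGFP points, and for the 8 lower members to the left, as for Rgs13, at 0.0705 and 0.336 CPM in EYFP cells against 13.3 and 5.75 CPM in EGFP cells. The members shown were chosen by the test on these same libraries, so this separation is no further evidence. Of all 69 tested members, 55 had no overlap between these groups, and the share over all genes was not counted.

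Promoters of 4 genes are shown first, because the results below turn on their members: an alpha and a gamma subunit with large rises (Gnao1, Gng4), the most abundant RGS gene of the sorted cells (Rgs2) and the member with the largest fall (Rgs13). Each window holds the 250 bases before an annotated RefSeq start on GRCm38.p6, written from 5′ to 3′ on the gene's own strand. Capitals mark CAGATG, the E-box form favoured by Neurog and Neurod factors, or TGACG, the core part of the element bound by the cyclic AMP responsive factor CREB, each searched on both strands (CATCTG and CGTCA on the other). The windows lie at chr13:13783809-13784058 (plus strand) for Gng4, chr8:93810588-93810837 (plus) for Gnao1, chr1:144004150-144004399 (minus) for Rgs2 and chr1:144177373-144177622 (minus) for Rgs13.
Gng4: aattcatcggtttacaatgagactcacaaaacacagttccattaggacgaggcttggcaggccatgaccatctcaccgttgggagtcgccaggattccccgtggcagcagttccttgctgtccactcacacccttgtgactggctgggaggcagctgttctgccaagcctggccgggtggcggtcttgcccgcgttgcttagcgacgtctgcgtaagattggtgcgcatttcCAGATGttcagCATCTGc
Gnao1: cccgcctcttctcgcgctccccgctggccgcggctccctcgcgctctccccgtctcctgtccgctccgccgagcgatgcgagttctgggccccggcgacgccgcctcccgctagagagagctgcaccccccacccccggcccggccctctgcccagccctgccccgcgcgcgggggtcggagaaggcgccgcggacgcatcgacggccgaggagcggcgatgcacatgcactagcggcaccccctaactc
Rgs2: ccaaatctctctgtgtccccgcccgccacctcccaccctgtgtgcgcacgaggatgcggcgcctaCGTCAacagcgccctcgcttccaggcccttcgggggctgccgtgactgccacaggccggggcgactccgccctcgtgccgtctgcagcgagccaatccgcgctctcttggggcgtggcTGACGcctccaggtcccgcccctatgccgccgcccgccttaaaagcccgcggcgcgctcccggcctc
Rgs13: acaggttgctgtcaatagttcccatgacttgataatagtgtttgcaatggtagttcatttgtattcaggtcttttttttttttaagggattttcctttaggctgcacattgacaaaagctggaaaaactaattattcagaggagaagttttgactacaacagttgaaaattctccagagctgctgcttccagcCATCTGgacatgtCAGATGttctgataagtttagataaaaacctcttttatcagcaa
The Gng4 window held 2 E-box matches, whose first bases lie 18 and 7 bases before the start. The Rgs13 window also held 2, at 57 and 44 bases before the start, although Rgs13 fell where Gng4 rose. Rgs2 had 2 TGACG matches, 185 and 67 bases before the start, and neither motif was found in the Gnao1 window. Gng4 has another annotated window (chr13:13784057-13784306), with no E-box and 2 TGACG matches. Members higher in all 3 comparisons below had 14 windows (11 genes), of which 1 held CAGATG, that of Gng4, and 2 held TGACG. RefSeq promoters were available for 64 member genes, in 100 windows. CAGATG was in 19 of these windows (16 genes) and in 14.4% of all 32851 windows of that length, TGACG in 17 (15 genes) against 17.8% of all, and the full element TGACGTCA, which contains TGACG, in 0 against 1.55%. The median GC content was 57.2% over member windows and 52.4% over all. These are matches of letters and not sites of binding.

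Among alpha subunits of the Gi/o class, 4 of the 6 tested rose in EYFP over EGFP cells and 0 fell in edgeR's test. Also, 0 were lower at an unadjusted p under 0.05 and with DESeq2. Of all genes tested, 16.8% were called higher and 19.4% lower. Gnao1, the Go alpha subunit typical of neurons and endocrine cells (chr8:93810153-93969388, mm10), stood at 118 and 137 CPM in EGFP cells, 478 and 429 in EYFP cells, and 6.16 and 6.27 in wild type. The 3 groups did not overlap, and EYFP cells were 1.83 ± 0.15 (SE) higher than EGFP cells on the log2 scale (adjusted p = 0.00027). Of the 8 enteroendocrine markers, 7 were also higher in EYFP than in EGFP cells. Their sums were 9072 to 13629 CPM in EGFP and 45888 to 60593 CPM in EYFP libraries. The summed neuron and glia markers, at most 16.0 CPM, had the same direction in the sorted cells. The part of either marker set in this result and that of Gng4 was not tested. Gnaz, a Gi relative whose GTP hydrolysis is slow, was at 4.10 and 7.02 CPM in EGFP cells and 24.0 and 18.8 CPM in EYFP cells, against 0.167 and 0.422 CPM in wild type, a rise of 1.93 ± 0.34 (adjusted p = 0.0045). Gnai1 rose by 1.38 ± 0.34 (adjusted p = 0.017), from 6.27 and 9.64 to 15.2 and 26.8 CPM.

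Gnai2, the broadly expressed Gi subunit, was far more abundant than Gnai1 and had 178 and 199 CPM in EGFP, 366 and 287 CPM in EYFP and 173 and 219 CPM in wild-type libraries. Its EYFP libraries lay above all 4 others, and the rise over EGFP cells was 0.79 ± 0.19 (adjusted p = 0.014). Gnai3, the third inhibitory Gi gene, gave a log2 difference of -0.18 that did not pass (adjusted p = 0.36). Leaving out single libraries, the Gnao1 and Gnaz calls held in every fit. The Gnai1 call was lost without EGFP replicate 1 (1.18) or EYFP replicate 2 (0.92), and that of Gnai2 without EGFP replicate 1 (0.77), EGFP replicate 2 (0.87) or EYFP replicate 1 (0.61).

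The stimulatory subunit Gnas was the most abundant alpha gene per kilobase of transcript in the sorted cells and did not pass between the sorted groups, at 483 and 528 CPM in EGFP and 611 and 598 CPM in EYFP cells (log2 difference 0.26, adjusted p = 0.24). Gnas lies in an imprinted locus with several overlapping transcripts, which a count per gene does not separate. Gnal, the olfactory form of Gs alpha, was at 10.2 and 9.98 CPM in EGFP and 6.41 and 6.39 CPM in EYFP cells, with wild type at 17.3 and 20.0 CPM. Its fall of -0.66 ± 0.21 (adjusted p = 0.043) was small. The Gnal call was lost when any one of the 4 sorted libraries was left out, with values of -0.59 (EGFP replicate 1), -0.68 (EGFP replicate 2), -0.66 (EYFP replicate 1) and -0.66 (EYFP replicate 2), and also with DESeq2 size factors, with no filter, with the DESeq2 test and in a fit of only the 4 libraries.

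None of the 3 tested Gq subunits passed between EYFP and EGFP cells in edgeR's test, where 1 (Gnaq) had an unadjusted p under 0.05, and 0 passed with DESeq2. Gnaq gave a log2 difference of 0.33 (adjusted p = 0.1) and Gna11 one of -0.25 (adjusted p = 0.4). Of the G12 class, Gna12 rose by 0.77 ± 0.20 (adjusted p = 0.022), from 21.4 and 22.1 CPM to 43.4 and 30.7 CPM. Gna13 gave 0.25 and did not pass (adjusted p = 0.18). The Gna12 call was lost without EGFP replicate 1 (0.80), EGFP replicate 2 (0.79) or EYFP replicate 1 (0.50).

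The beta subunits, which hold the gamma subunit and carry signals of their own to channels and enzymes, showed no call between the sorted groups by edgeR's test, and 3 of the 5 could be tested. At an unadjusted p under 0.05 there was 1 (Gnb5), and with DESeq2 0. Gnb2 stood at 386 and 407 CPM in EGFP and 455 and 371 CPM in EYFP cells, overlapping ranges. Gnb1 differed by 0.35 (adjusted p = 0.19), and Gnb5, the atypical beta subunit that pairs with RGS proteins of the R7 group, by 0.88 (adjusted p = 0.11), from 6.88 and 12.2 to 19.9 and 15.3 CPM. Gnb3 and Gnb4 stayed under the filter, with at most 0.121 and 0.505 CPM in any library.

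Gamma subunits anchor the beta-gamma pair to the membrane, and 4 of the 8 tested rose while 1 fell. These are 50% and 12.5%, against 16.8% and 19.4% of all genes tested. Gng4, a gamma subunit known mainly from brain (chr13:13784059-13827895, mm10), was at 64.9 and 78.3 CPM in EGFP, 268 and 277 CPM in EYFP and 2.33 and 3.32 CPM in wild-type libraries. No 2 groups overlapped, and the EYFP level was 3.80-fold the EGFP level (1.93 ± 0.17 on the log2 scale, adjusted p = 0.00039). Gng12, the gamma gene with the most counts, had a different order of groups: 197 and 196 CPM in EGFP cells were below both the EYFP libraries (452 and 440 CPM) and the wild-type libraries (362 and 508 CPM). Its difference was 1.18 ± 0.19 for EYFP over EGFP (adjusted p = 0.0033) and -1.14 ± 0.19 for EGFP over wild type (adjusted p = 0.0024), and EYFP cells and wild type overlapped.

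Gng2 rose by 1.41 ± 0.28 (adjusted p = 0.007), from 8.32 and 8.29 to 27.1 and 17.1 CPM, and Gng10 by 0.64 ± 0.20 (adjusted p = 0.04). Gng11, a gamma subunit that carries a farnesyl anchor, fell from 8.08 and 5.24 CPM to 1.20 and 1.51 CPM (-2.28 ± 0.37, adjusted p = 0.003), and wild type, at 7.75 and 9.23 CPM, overlapped the EGFP libraries. Calls of Gng4, Gng12 and Gng11 held whichever library was left out. Gng2 lost its call without EYFP replicate 1 (1.04). Gng10 lost it without EGFP replicate 1 (0.72), EGFP replicate 2 (0.63), EYFP replicate 1 (0.79) or EYFP replicate 2 (0.48). The strand setting of the authors' counting is not known here. Exons of 12 members overlap those of another protein-coding gene, so that reads could be divided between them. Of these, 3 were called between EYFP and EGFP cells: Gna12 and Gnal (opposite strand) and Gng10 (same strand). The others include Gnb2 and Pde2a (same strand) and Gnas and Rgs11 (opposite strand).

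Adenylyl cyclases differ in how calcium and G-protein subunits act on them, and the tested members moved in both directions. Of the 8 tested, 2 rose and 2 fell, 25% each, against 16.8% higher and 19.4% lower over all genes tested. Of the 3 tested calmodulin-stimulated cyclases, Adcy1 and Adcy8 rose, and the scarce Adcy3 gave -0.33 without passing (adjusted p = 0.72). Adcy1 (chr11:7063433-7178506, mm10) was at 28.2 and 49.0 CPM in EGFP, 149 and 138 CPM in EYFP and 2.92 and 1.39 CPM in wild-type libraries, and Adcy8 at 17.5 and 25.4, 44.1 and 50.2, and 0.75 and 2.17 CPM. For Adcy1 and Adcy8 every EYFP library exceeded every EGFP library, by 1.89 ± 0.33 for Adcy1 (adjusted p = 0.0062) and 1.13 ± 0.34 for Adcy8 (adjusted p = 0.036). Adcy2, a cyclase that beta-gamma subunits can stimulate, gave 0.97 ± 0.34 without passing (adjusted p = 0.065), at 18.9 and 33.3 against 39.8 and 63.2 CPM. Without EGFP replicate 2 it was called (1.44).

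Adcy6 and Adcy5, the cyclases inhibited by calcium, both fell. Adcy6, the most abundant cyclase (chr15:98589978-98610287, mm10), was at 336 and 363 CPM in EGFP and 183 and 219 CPM in EYFP libraries, while wild type, at 332 and 361 CPM, lay beside EGFP cells. The fall was -0.80 ± 0.16 (adjusted p = 0.0076). Adcy5 was scarce, at 3.14 and 1.78 CPM in EGFP and 0.775 and 0.505 CPM in EYFP cells (-1.89 ± 0.60, adjusted p = 0.041). Adcy9 was level across the groups, from 31.0 to 44.9 CPM.

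The Adcy1 call held whichever library was left out. The Adcy8 call was lost without EGFP replicate 1 (0.95), EGFP replicate 2 (1.43), EYFP replicate 1 (1.22) or EYFP replicate 2 (1.03), and the Adcy6 call without EGFP replicate 1 (-0.80) or EYFP replicate 1 (-0.68). That of Adcy5 was lost without EGFP replicate 1 (-1.40), EGFP replicate 2 (-2.27), EYFP replicate 1 (-2.24) or EYFP replicate 2 (-1.64), with the DESeq2 test and with the replicate number as a block.

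Phosphodiesterases showed 5 rises and 2 falls among 21 tested (23.8% and 9.52%, against 16.8% and 19.4% of all genes tested). By substrate, 3 of 7 tested enzymes that cleave both cyclic nucleotides rose (Pde1c, Pde11a, Pde3b), as did 2 of 8 that prefer cyclic AMP (Pde7a, Pde8a), and 0 of 4 that prefer cyclic GMP (1 at an unadjusted p under 0.05, Pde6a, and 0 with DESeq2). Pde1c, a calmodulin-activated enzyme (chr6:56069798-56652510, mm10), gave the largest called rise of the family. Its levels were 19.1 and 17.4 CPM in EGFP, 77.0 and 73.9 CPM in EYFP and 1.08 and 0.844 CPM in wild-type libraries, so that EYFP cells had 4.14-fold the EGFP level (2.05 ± 0.16 on the log2 scale, adjusted p = 0.00025). Pde11a rose from 10.5 and 9.98 CPM to 31.9 and 35.1 CPM (1.71 ± 0.19, adjusted p = 0.00078).

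Pde8a, a high-affinity cyclic AMP enzyme, rose by 1.21 ± 0.30 (adjusted p = 0.018), from 5.07 and 7.19 to 13.5 and 15.0 CPM. Its paralog Pde8b went the other way, from 10.9 and 9.55 CPM to 4.86 and 6.39 CPM (-0.86 ± 0.26, adjusted p = 0.037). Pde3b, a cyclic AMP hydrolase inhibited by cyclic GMP, rose by 0.86 ± 0.18 (adjusted p = 0.0091), and Pde7a by 0.69 ± 0.19 (adjusted p = 0.025). Pde5a, the cyclic GMP enzyme that sildenafil inhibits, fell from 58.7 and 53.8 to 30.1 and 36.8 CPM (-0.75 ± 0.15, adjusted p = 0.0072), with both wild-type libraries above, at 112 and 117 CPM. Pde9a, the phosphodiesterase with the highest mean level per kilobase over the 6 libraries, stood at 50.4 and 71.2 CPM in EGFP and 40.2 and 51.2 CPM in EYFP cells, which overlap (-0.42, adjusted p = 0.19).

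Pde1c and Pde11a kept their calls whichever library was left out. Losses were seen for Pde3b without EGFP replicate 2 (0.75) or EYFP replicate 1 (0.76), and for Pde5a without EGFP replicate 1 (-0.63) or EYFP replicate 1 (-0.61). The Pde7a call went without EGFP replicate 1 (0.84), EGFP replicate 2 (0.59) or EYFP replicate 2 (0.53), and that of Pde8a without EGFP replicate 1 (1.04), EYFP replicate 1 (1.28) or EYFP replicate 2 (1.13). Pde8b lost its call without EGFP replicate 1 (-0.71), EGFP replicate 2 (-0.95), EYFP replicate 1 (-0.67) or EYFP replicate 2 (-1.07), and with DESeq2's size factors or test. A pair of members carry the family symbol for other functions: Pde6d is a carrier of prenylated proteins and Pde12 a mitochondrial enzyme that trims RNA tails. Both count among the tested phosphodiesterases, and neither was called between the sorted groups.

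Of the 16 RGS genes tested, 2 rose, 2 fell and 12 did not pass. That is 12.5% in each direction, against 16.8% higher and 19.4% lower over all genes tested. Rgs2, which acts on Gq and also restrains adenylyl cyclase, was the most abundant in the sorted cells (chr1:143999338-144004149, mm10), at 157 and 222 CPM in EGFP, 339 and 432 CPM in EYFP and 26.0 and 21.1 CPM in wild-type libraries. The groups did not overlap, with a rise of 1.02 ± 0.22 (adjusted p = 0.0096). Rgs17, an RZ group protein that acts on Gz and Gi/o, rose by 1.48 ± 0.29 (adjusted p = 0.0069), from 5.67 and 8.79 to 17.4 and 23.3 CPM, against 0.250 and 0.241 CPM in wild type. Rgs3 fell from 35.9 and 33.5 to 19.0 and 25.0 CPM (-0.66 ± 0.19, adjusted p = 0.032).

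Rgs13, an RGS gene of the R4 group (chr1:144137386-144177372, mm10), fell most of all members, from 13.3 and 5.75 CPM in EGFP to 0.0705 and 0.336 CPM in EYFP libraries (-5.53 ± 0.84, adjusted p = 0.0028), with wild type at 2.08 and 5.07 CPM. The call held whichever library was left out, and the size ranged: it was -4.77 without EGFP replicate 1, -4.77 without EYFP replicate 1 and -6.88 without EYFP replicate 2. Markers of tuft cells, the chemosensory cells of the gut lining, moved with it. Their summed level was 112 to 189 CPM in EGFP, 6.27 to 15.1 CPM in EYFP and 23.3 to 93.8 CPM in wild type, all 6 tested of the 7 in the table were lower in EYFP than in EGFP cells, and Il25 was at 0 in both EYFP libraries. Their part in the Rgs13 result was not tested.

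Rgs2 lost its call without EGFP replicate 1 (0.85) or EYFP replicate 2 (0.83) and Rgs17 without EYFP replicate 2 (1.25). Rgs3 lost it without EGFP replicate 1 (-0.55), EGFP replicate 2 (-0.71) or EYFP replicate 1 (-0.47), and with DESeq2's size factors or test. Rgs4, an R4 group regulator of Gi and Gq, could not be placed between the sorted groups, because the EYFP libraries differed, at 30.4 and 119 CPM, around EGFP cells at 43.3 and 41.2 CPM. Its log2 difference was 0.82 (adjusted p = 0.37), and was 1.5 without EYFP replicate 1, where it passed (adjusted p = 0.0089), and -0.48 without EYFP replicate 2. None of the 3 tested genes of the R7 group (Rgs7, Rgs9, Rgs11), partners of Gnb5, passed between EYFP and EGFP cells in edgeR's test, and 0 did at an unadjusted p under 0.05 or with DESeq2. Their differences were 1.31, 0.44 and 0.87.

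**Figure D2:**
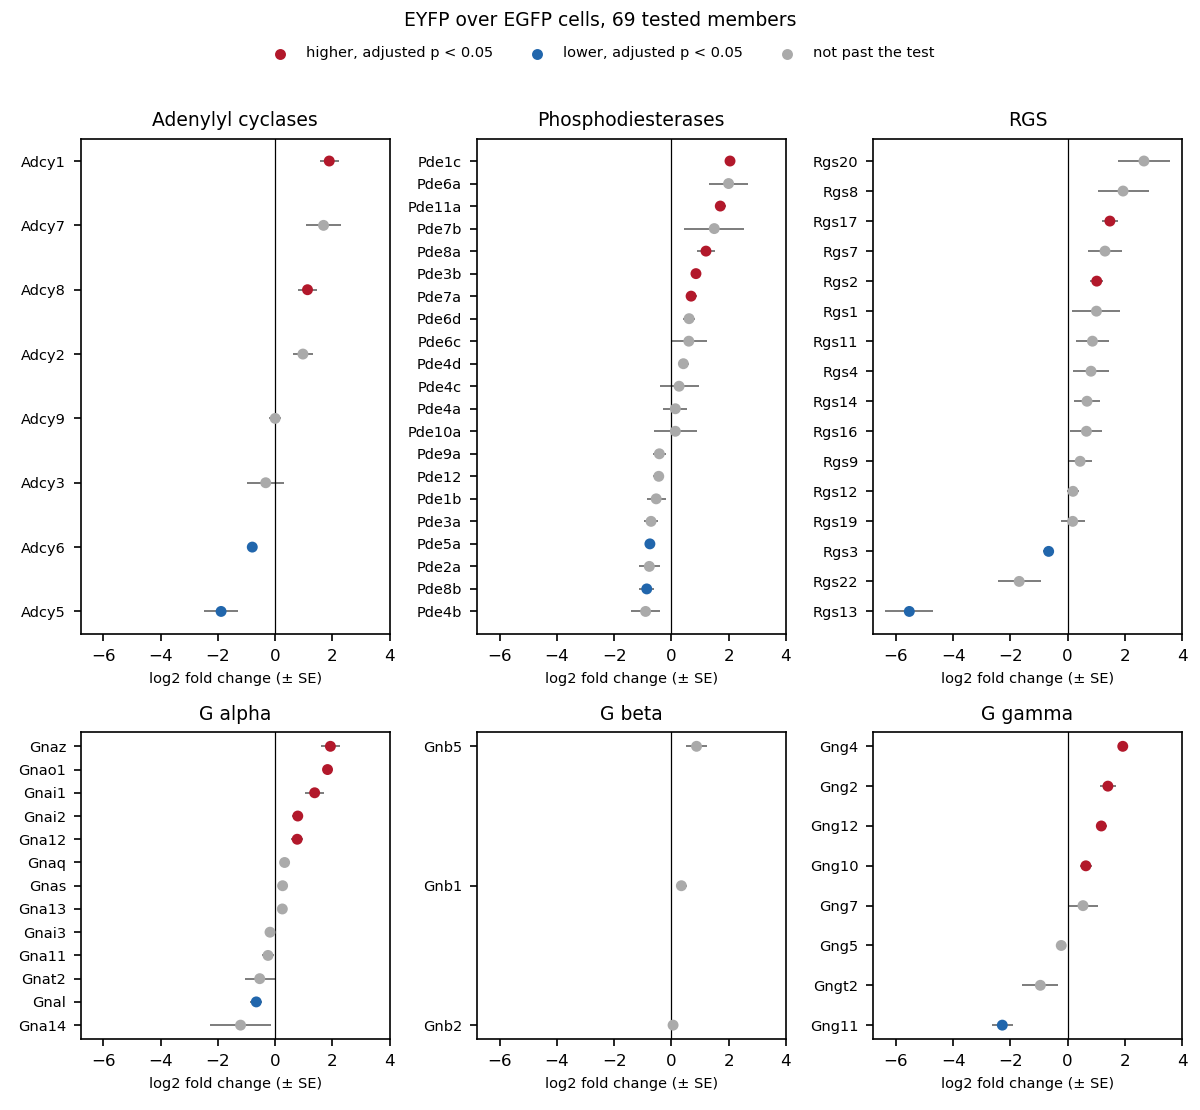
Log2 fold change (± SE) of EYFP over EGFP cells for each of the 69 tested members, by family, with members past the test in red (higher) or blue (lower) and others in grey. The 18 higher members lie between 0.64 (Gng10) and 2.05 (Pde1c), and the 8 lower ones between -0.66 and -5.53 (Rgs13).

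Levels per kilobase of transcript, which allow genes to be compared, show how each family was made up in a library. Transcript lengths are medians of annotated transcripts, so the shares are approximate, and they are given without a test. Among alpha subunits, the Gi/o class made up 35.2% and 34.6% of the summed level in EGFP libraries, 47.1% and 44.5% in EYFP libraries and 24.2% and 23.6% in wild type. Gnao1 alone went from a mean of 0.211% in wild type to 6.07% in EGFP and 15.6% in EYFP cells. The Gq class took 12.2% and 12.1%, 7.97% and 8.36%, and 35.9% and 43.7% in the same order, most of it Gna11.

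The cyclase family changed its make-up while its summed level stayed in a narrow range. Summed CPM per kilobase was 72.6 and 83.6 in EGFP, 65.8 and 77.4 in EYFP and 64.2 and 73.3 in wild-type libraries. Adcy6 held a mean of 83.7% of this sum in wild type, 74.4% in EGFP and 46.5% in EYFP cells. Adcy1, Adcy2 and Adcy8 together held 0.815% and 1.01% in wild type, 12.8% and 18.6% in EGFP, and 42.5% and 43.3% in EYFP libraries.

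Phosphodiesterases behaved alike in that the sum per kilobase lay between 113 and 136 in all libraries. This sum includes the members with other functions. Pde6d had mean shares of 8.94% in wild type, 10.7% in EGFP and 15.3% in EYFP cells, and Pde12 had 3.81%, 3.28% and 2.24%. Pde9a, a cyclic GMP enzyme, led in wild type with a mean of 50.7% and had 23.4% in EGFP and 16.4% in EYFP cells. Pde2a, which cyclic GMP activates to degrade cyclic AMP, had 2.45%, 30.3% and 16.5%, and Pde1c 0.215%, 4.0% and 15.4%. The RGS sum differed between groups, at 45.8 and 55.5 in wild-type, 99.5 and 121 in EGFP and 157 and 226 in EYFP libraries. In the RGS family, Rgs3 (35.5%), Rgs1 (27.7%) and Rgs2 (15.7%) shared the level in wild type, and Rgs2 held 56.4% in EGFP and 67.3% in EYFP cells. The gamma sum was 396 and 507 in wild-type, 327 and 330 in EGFP and 538 and 513 in EYFP libraries. Among gamma subunits, Gng4 rose in mean share from 0.195% in wild type to 6.86% in EGFP and 16.3% in EYFP cells, and Gng5 had 42.7%, 49.6% and 26.6%.

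**Figure D3:**
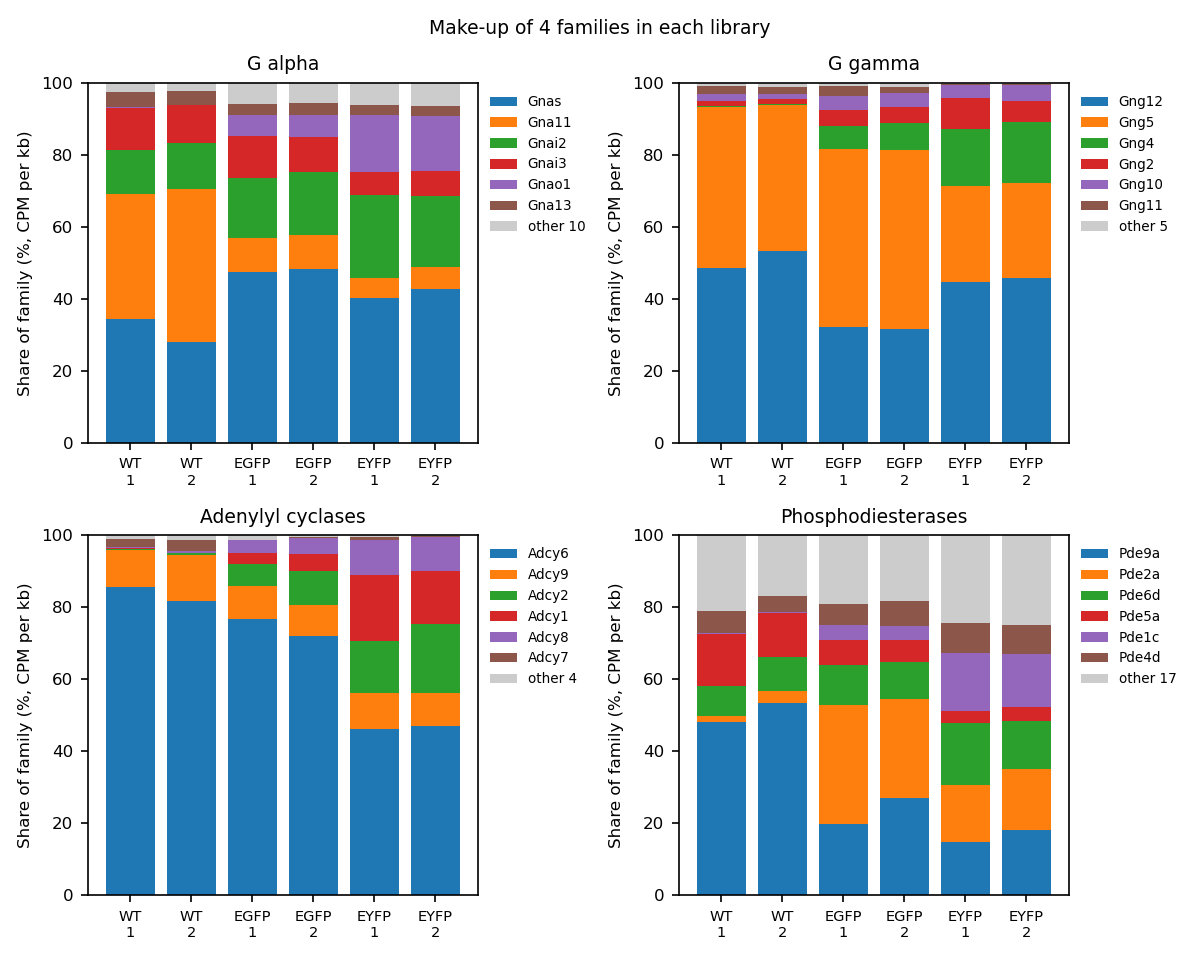
Share (%) of each family's summed CPM per kilobase held by its 6 most abundant genes, in each library, for 4 families. Wild-type bars are led by Gna11 and Gnas, Gng12 and Gng5, Adcy6, and Pde9a, and in EYFP bars Gnao1 (15.6%), Gng4 (16.3%), Adcy1 (16.5%) and Pde1c (15.4%) take visible shares.

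Against wild-type epithelium, more members passed. In EGFP cells 24 of the 69 were higher (34.8%) and 12 lower (17.4%), where 19.6% and 21.9% of all genes tested were called higher and lower. In EYFP cells 34 were higher (49.3%) and 17 lower (24.6%), against 27.1% and 33.5% of all genes. The median log2 difference of the members was 0.53 and 0.69 in these comparisons, and that of all genes 0.00 and -0.12. The comparisons share libraries, so their calls are not independent of each other. By position in all 3, 14 members were higher in EGFP than in wild type and again higher in EYFP than in EGFP cells (Adcy1, Adcy8, Gna12, Gnai1, Gnao1, Gnaz, Gng10, Gng2, Gng4, Pde11a, Pde1c, Pde3b, Rgs17 and Rgs2), and 3 were lower at each step (Gnal, Pde5a and Rgs3). Of all genes tested, 8.18% and 5.20% had these patterns. The EGFP calls against wild type were lost for Gng2 without EGFP replicate 2 (1.14) or wild-type replicate 1 (1.0), for Pde3b without EGFP replicate 1 (0.63), EGFP replicate 2 (0.74) or wild-type replicate 2 (0.51), and for Gnal without EGFP replicate 1 (-0.80), EGFP replicate 2 (-0.86) or wild-type replicate 2 (-0.78).

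Among the large differences, Gng4 was 4.64 ± 0.21 above wild type in EGFP cells and 6.57 ± 0.22 in EYFP cells on the log2 scale (adjusted p = 2e-05 and 2.4e-06). Gnao1 was 4.36 ± 0.17 and 6.19 ± 0.18 above it, and Rgs17 4.84 ± 0.43 and 6.32 ± 0.42. Pde1c gave 4.25 ± 0.21 and 6.30 ± 0.21, and Adcy1 4.21 ± 0.40 and 6.10 ± 0.42. These 5 genes were at most 6.27 CPM in wild type. All 8 enteroendocrine markers were also above wild type, with median log2 differences of 4.38 in EGFP and 6.25 in EYFP cells. Their part in these differences was not tested.

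In the fit of all 6 libraries, a group of 9 members was higher than wild type in both sorted groups and did not pass between them: Adcy2, Gnaq, Gng7, Pde2a, Pde6c, Rgs4, Rgs7, Rgs9 and Rgs11. Of all genes tested, 7.04% had this pattern. As given above, some were called between the sorted groups when a library was left out: Adcy2 (EGFP replicate 2), Rgs4 (EYFP replicate 1) and Rgs7 (either wild-type library). Pde2a was at 165 and 144 CPM in EGFP, 85.6 and 95.5 CPM in EYFP and 7.33 and 18.6 CPM in wild-type libraries. Both sorted groups were clear of wild type, EGFP cells by 3.56 ± 0.41 (adjusted p = 0.0011) and EYFP cells by 2.79 ± 0.40, and the difference between them was -0.77 ± 0.37 (adjusted p = 0.16). Leaving out wild-type replicate 2, the higher of the pair, gave 4.40 and 3.62. Adcy2 stood 4.61 ± 0.45 and 5.57 ± 0.46 above wild type. The 3 tested R7 genes were among these 9. Rgs11 lost its call in EGFP cells without EGFP replicate 1 (2.63), EGFP replicate 2 (1.74), wild-type replicate 1 (2.09) or wild-type replicate 2 (2.34) and with no filter, and in EYFP cells without wild-type replicate 1 (2.95) or 2 (3.20), where leaving out EYFP replicate 2 gave 1.90. Rgs9 lost it in EGFP cells without EGFP replicate 2 (1.68) or wild-type replicate 2 (1.69), and Gnaq there without EGFP replicate 2 (0.54). The Gng7 call in EGFP cells (1.99) was lost in all 6 fits without a library (1.69 to 2.50), with no filter, with the DESeq2 test and with the replicate block, and that in EYFP cells without wild-type replicate 1 (2.22). Gnb5 was 1.40 ± 0.38 above wild type in EYFP cells (adjusted p = 0.014) and 0.53 ± 0.38 in EGFP cells, which did not pass (adjusted p = 0.32). The call of Gnb5 in EYFP cells was lost without EYFP replicate 1 (1.20) or wild-type replicate 1 (1.04).

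Rgs7 was at 0.75 and 0 CPM in wild type, and its difference from EGFP cells, 4.54 ± 0.87 (adjusted p = 0.0071), became 3.37 without wild-type replicate 2. Without wild-type replicate 1, where only the library at 0 is left, EGFP cells were at least 45.1-fold higher, taking a floor of 3 counts. Rgs4 was 4.67 ± 0.82 above wild type in EGFP cells (adjusted p = 0.0087) and 5.49 ± 0.83 in EYFP cells. The former call was lost without wild-type replicate 1 (4.36) or 2 (5.17) and with no filter on low counts, and the latter difference became 6.17 when EYFP replicate 1 was left out and 4.20 when EYFP replicate 2 was. Pde6c and Rgs8 were at 0 in both wild-type libraries. With a floor of 3 counts over the group, Pde6c was at least 5.69-fold higher in EGFP and at least 8.77-fold higher in EYFP cells, and Rgs8 at least 4.74-fold and 19.7-fold higher, although neither exceeded 2.19 CPM in the sorted cells. The Rgs8 difference in EGFP cells did not pass (adjusted p = 0.055), and the Pde6c call there was lost without EGFP replicate 1 (at least 4.84-fold) or wild-type replicate 2 (at least 2.39-fold).

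Members lower than wild type in both sorted groups included Gna11, a Gq alpha subunit, and the beta subunit Gnb1. Gna11 was at 748 and 1120 CPM in wild type, 152 and 167 CPM in EGFP and 135 and 133 CPM in EYFP libraries, differences of -2.55 ± 0.23 (adjusted p = 0.00013) and -2.80 ± 0.23 (adjusted p = 3.7e-05). Gnb1 was at 548 and 729 CPM in wild type and at 271 to 380 CPM in the 4 sorted libraries (-1.14 ± 0.19 in EGFP and -0.79 ± 0.19 in EYFP cells). Without EYFP replicate 2 the latter call was lost (-0.75). Markers of enterocytes, the absorptive cells, summed to 23142 to 36584 CPM in wild type and 1308 to 1959 CPM in the sorted libraries, and all 7 were lower in each sorted group. Their part in these falls was not tested.

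Rgs1, an R4 group regulator known from lymphocytes, was at 47.4 and 60.7 CPM in wild type, 0.965 and 4.40 CPM in EGFP and 8.95 and 2.27 CPM in EYFP libraries. It differed from wild type by -4.25 ± 0.83 (adjusted p = 0.012) and -3.25 ± 0.76 (adjusted p = 0.015). The first value was -3.51 without EGFP replicate 1 and -5.79 without EGFP replicate 2, and its call was lost with no filter on low counts. The second became -4.57 when EYFP replicate 1 was left out and -2.60 when EYFP replicate 2 was, and its call was lost without wild-type replicate 2 (-3.06), with no filter and with the replicate block. Adcy7, a cyclase common in blood cells, was at 9.08 and 13.6 CPM in wild type and at most 3.03 CPM in the sorted libraries, with differences of -4.05 ± 0.57 and -2.36 ± 0.49. Without EGFP replicate 2 the first was -4.94, and without EYFP replicate 1 the second was -3.07. Of 8 tested markers of leukocytes, 5 were lower than wild type in each sorted group and 1 higher, and their summed level was 181 to 218 CPM in wild type, 144 to 194 CPM in EGFP and 96.2 to 343 CPM in EYFP libraries, with Cd79a at 0 in EGFP cells. Their part in these results was not tested.

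Other called differences from wild type also moved when 1 library was left out. In EGFP cells Adcy1 was 4.80 without wild-type replicate 1, Adcy8 was 4.83 and Gnaz 4.99 without wild-type replicate 2. In EYFP cells Adcy8 was 5.95 and Gnaz 6.92 without wild-type replicate 2. Rgs13 was -4.15 ± 0.85 below wild type in EYFP cells, and that became -3.39 when EYFP replicate 1 was left out, -5.50 when EYFP replicate 2 was, and -3.36 when wild-type replicate 2 was. Whichever library was left out, 15 of the 24 higher and 9 of the 12 lower calls held for EGFP cells against wild type, and 24 of 34 and 11 of 17 for EYFP cells.

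Genes that act around these families were taken from 7 lists of the same pathway. The counts for these lists stand beside 16.8% of all genes tested called higher and 19.4% called lower between EYFP and EGFP cells. Of 9 subunits and inhibitors of protein kinase A, the main target of cyclic AMP, 5 rose and 1 fell between EYFP and EGFP cells, with a median of 1.07. Of the 4 regulatory subunits, Prkar1a (1.07, adjusted p = 0.0013), Prkar1b (2.06, adjusted p = 0.0021) and Prkar2b rose and Prkar2a fell. Prkar2b went from 1.45 and 1.61 to 12.8 and 10 CPM (2.89 ± 0.35, adjusted p = 0.00098), and Prkar2a from 224 and 198 to 104 and 105 CPM (-1.02 ± 0.14, adjusted p = 0.0015). The exchange factors of Rap that bind cyclic AMP went opposite ways. Rapgef4 (Epac2) rose by 1.77 ± 0.20 (adjusted p = 0.00083), and Rapgef3 (Epac1) fell by 2.89 on the log2 scale (SE 0.23, adjusted p = 0.00026), from 32.2 and 28.4 to 3.81 and 4.37 CPM, with wild type at 2.67 and 3.26 CPM. Goblet markers were also highest in EGFP cells (sums given above; 7 of the 8 were higher there than in wild type), and their part in the Rapgef3 result was not tested. In the list of these effectors and CREB factors, 2 of 8 tested genes rose and 1 fell.

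Of 7 genes for phospholipase C beta and IP3 receptors, which serve Gq and beta-gamma signals, 3 rose and 3 fell. Itpr1, the IP3 receptor of type 1, rose from 77.3 and 75.5 to 307 and 251 CPM (1.87 ± 0.20, adjusted p = 0.00068). Plcb2, which in the gut is known from tuft cells, fell from 23.9 and 5.67 to 0.705 and 1.01 CPM (-4.09 ± 0.99, adjusted p = 0.023), beside the fall of the tuft markers given above, whose part was not tested. That call was lost without EGFP replicate 1 (-2.67), EYFP replicate 1 (-3.84) or EYFP replicate 2 (-4.36), with no filter on low counts and with the replicate block. Among 8 receptor kinases and arrestins 3 rose and 3 fell, with Grk5 at 1.25 ± 0.25 (adjusted p = 0.0069; lost without EGFP replicate 1, 1.12) and Grk6 at -0.97 ± 0.14 (adjusted p = 0.0019).

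In the list of chaperones and modulators of G proteins, 3 of 9 tested genes rose and 1 fell. Gprin1, a partner of Go alpha in neurites, rose by 1.98 ± 0.43 (adjusted p = 0.013). Its call did not hold without EGFP replicate 1 (1.72) or EYFP replicate 2 (1.93). Gpsm2, which binds Gi alpha and orients the mitotic spindle, fell from 91.4 and 90.8 to 31.2 and 31.7 CPM (-1.54 ± 0.13, adjusted p = 0.00028), beside the lower markers of dividing cells given above, whose part was not tested. Of 4 tested guanylyl cyclases and cyclic GMP kinases 1 rose, the natriuretic peptide receptor Npr1 (1.20 ± 0.35, adjusted p = 0.032), and its call was lost without EGFP replicate 1 (1.45), EGFP replicate 2 (1.0), EYFP replicate 1 (1.04) or EYFP replicate 2 (1.33). Among 10 tested A-kinase anchoring proteins 1 rose and 2 fell, with Akap8l at 0.61 ± 0.19 (adjusted p = 0.042) and Akap7 at -0.89 ± 0.15 (adjusted p = 0.0035). The Akap8l call was lost without EGFP replicate 1 (0.50), EGFP replicate 2 (0.80), EYFP replicate 2 (0.38), wild-type replicate 1 (0.60) or wild-type replicate 2 (0.60).

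**Figure D4:**
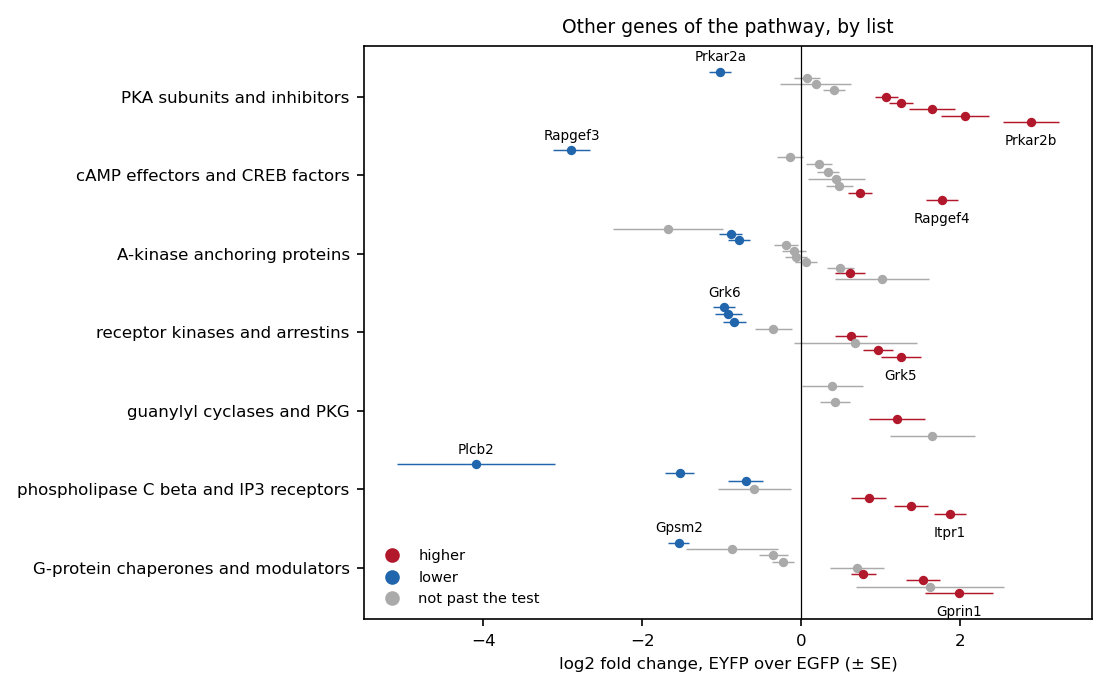
Log2 fold change (± SE) of EYFP over EGFP cells for the tested genes of 7 lists of the same pathway, coloured by whether they passed the test, with the outermost genes named where they passed. Prkar2b (2.89) and Prkar2a (-1.02) lie on opposite sides of 0, as do Rapgef4 (1.77) and Rapgef3 (-2.89).

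The 17 members under the filter were Adcy4, Adcy10, Gna15, Gnat1, Gnat3, Gnb3, Gnb4, Gng3, Gng8, Gngt1, Pde1a, Pde6b, Rgs5, Rgs6, Rgs10, Rgs18 and Rgs21. None exceeded 1.39 CPM in any library, the level of Adcy4 in a wild-type library. Pde6b, Rgs18 and Rgs21 had 0 counts in all 6 libraries. Gnat3, the taste alpha subunit gustducin, had 7 counts over the 6 libraries and Rgs5, a pericyte gene, had 1, so differences in them were not detectable at this depth.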

How the data were processed

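Per the labels' protocols, RNA of 6 libraries (RNeasy Micro and TruSeq RNA kits) was read on a HiSeq2000, 50 bases from 1 end. Per the submitters' processing notes, the tools were Bowtie2, RSEM 1.3.1, FastQC 0.11.8 and DESeq2 1.26.0, on mm10. Settings and strand handling were not given in the sources used here. Estimated counts (expected counts) per gene were deposited by the authors. RSEM splits reads that fit several genes, so these counts can be fractional. The EYFP columns carry EGFP with the word addon in their names and were matched by that word to sample titles. The authors' deposited table of comparisons was not used here.

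Estimated counts were rounded, filtered with edgeR's filterByExpr (13935 of 23845 genes, 58.4%, were kept), scaled by TMM and tested by the quasi-likelihood F test (robust) of edgeR 4.0.16 in R 4.3.3, on 3 group means over 6 libraries (3 residual degrees of freedom). P-values were adjusted by Benjamini-Hochberg over all tested genes, at 0.05. The SE was derived from the F value. The biological coefficient of variation was 19.8%. A group at 0 was given a floor of 3 counts, which covers counting error only. The method was tested on simulated data. Coordinates are those of RefSeq, matched for all 86 members. Lengths are medians of annotated GENCODE transcripts with matching RefSeq accessions. Promoter sequences came from RefSeq (GRCm38.p6).

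Members, lists and tests were chosen with earlier results of these data known. Named were members with the largest called changes in each family with both libraries of the higher group at 5 CPM or above, the main alpha and all beta subunits, the most abundant member of each family, the largest changes against wild type, and the outermost called gene of each list. Other members named (Adcy3, Adcy5, Adcy9, Gnb5's R7 partners, Gng5, Gng7, Pde2a, Pde6c, Pde6d, Pde12, Rgs8 and those listed to spell out a count) were picked with their values known. Alternatives were DESeq2 size factors, TMM without the 50 most abundant genes, no filter, a minimum of 10 counts, DESeq2 1.42.0's Wald test, only the 4 libraries compared, a minimum fold of 2, the replicate block, and fits without each library, in which the lone library of a group was assumed to vary as the others do.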

Additional observations from a re-analysis of the deposited data

How the results depend on the processing

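Over the named genes, 2040 of 2226 values under an alternative kept their direction and side of the threshold. A further 155 fell short of it, 19 newly passed and 12 turned direction. The causes of these changes were not tested, and some alternatives also have fewer samples. The turned values, none of them called, were as follows. In EGFP over wild type, Adcy6 was -0.04 without EGFP replicate 2 and -0.04 without wild-type replicate 1 (range without 1 library -0.04 to 0.17). Gnai2 was 0.03 with only the 4 libraries compared, 0.13 without EGFP replicate 1 and 0.12 without wild-type replicate 2 (range -0.21 to 0.13). Gprin1 was 0.20 without EGFP replicate 1 and 0.57 without wild-type replicate 2 (range -0.71 to 0.57), and Plcb2 was -0.45 without EGFP replicate 1 (range -0.45 to 1.93). In EYFP over EGFP, Gnb2 (-0.10, range -0.10 to 0.19) and Rgs1 (-0.31, range -0.31 to 2.54) turned without EYFP replicate 1 and Rgs4 (-0.48, range -0.48 to 1.5) without EYFP replicate 2. In EYFP over wild type, Gng12 was -0.19 without wild-type replicate 1 (range -0.19 to 0.30). Of the counts of members, lower calls in EYFP over EGFP were 5 with DESeq2 size factors, 4 with the DESeq2 test and 3 at a fold of at least 2, and lower calls in EYFP over wild type were 11 at that fold. Leaving out each library gave 11 to 20 higher and 2 to 9 lower members in EYFP over EGFP, 18 to 22 and 9 to 12 in EGFP over wild type, and 28 to 37 and 12 to 19 in EYFP over wild type. Deviations of libraries with the same replicate number correlated at 0.022, 0.096 and 0.014 across genes. With 2 libraries per group, this cannot exclude that libraries of the same number were collected or prepared together. With the replicate number as a block, 20 members were higher and 8 lower in EYFP over EGFP, 23 and 12 in EGFP over wild type, and 35 and 16 in EYFP over wild type. DESeq2 size factors moved the median of all genes by 0.115 in EYFP over wild type, and no called member changed sign with them. With 2 libraries per group, differences of members at a few CPM rest on few reads.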
